A study of Rattus norvegicus with 8 samples.

Results

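The epithelial junction and basal adhesion genes are a set of 36 genes, named by symbol, that build the contacts between epithelial cells and between epithelium and basement membrane, together with regulators and surface proteins of epithelial identity other than keratins. They fall into tight junction genes (9), adherens and adhesion genes (3), desmosome genes (7), hemidesmosome and basal lamina genes (7), basal and epithelial regulators (5), and genes of a surface, trafficking and protease system (5). All 36 of 36 were on the array, among 14217 named genes. They had 51 of 31042 probe sets, where a probe set is the group of short oligonucleotides that measures 1 transcript. Of these, 47 passed the filter on low intensities, and every member had at least 1 that did. The 4 left out as dim belonged to Cdh1, Dsp, Dst and Tp63, 1 each. The brightest probe set stands for a gene in every count by gene.

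RNA of Sprague-Dawley rat ventral prostate was hybridised to 8 Affymetrix arrays in 4 groups of 2. The groups were prostate epithelium of vinclozolin lineage and of control lineage males at 45 days of age, and whole ventral prostate of vinclozolin lineage and of control lineage males at 180 days. All were males of generation 3, descended from dams that had received intraperitoneal injections between days 8 and 14 of pregnancy. Vinclozolin is a crop fungicide that blocks the androgen receptor, and the study asked whether the transcriptome of such descendants differs from that of control descendants. The treatment protocol of all 8 samples names the vehicle, DMSO, so the vinclozolin groups rest on the titles of the samples. Each epithelium sample pooled 11 animals and each whole prostate sample pooled several. Whether both pools of a group held different animals is not in the labels, and p-values measure only the spread between these pools, which may be technical. Age and preparation changed together and cannot be told apart, and in bulk tissue fewer cells of a type and less RNA per cell cannot be told apart either.

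Tight junctions seal the space between neighbouring epithelial cells near the lumen, adherens junctions and desmosomes hold the cells together through cadherins, and hemidesmosomes anchor the basal side to the laminin of the basement membrane. In the prostate, secretory luminal cells face the duct lumen, and basal cells sit on the basement membrane. Hemidesmosome components, the cadherin Cdh3 (P-cadherin) and the transcription factor Tp63 are commonly used to recognise basal cells, whereas Cdh1 (E-cadherin) and Epcam are shared by epithelial cells of many kinds.

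The marker genes of other cell types went against the label of the epithelium arrays in part. Summed intensities of 10 fibroblast markers were 9578 to 10332 on the 4 epithelium arrays and 3183 to 3564 on the 4 whole prostate arrays, and 8 of 10 were higher and 1 lower in control epithelium than in control whole prostate. Smooth muscle markers summed to 17974 to 19790 on epithelium arrays and 7214 to 7894 on whole prostate arrays (6 of 9 higher), and endothelial markers to 784 to 938 and 281 to 337 (5 of 9 higher). The epithelium arrays thus carried more stromal signal than the whole prostate arrays did. Luminal markers summed to 30622 to 33197 on epithelium arrays and 28315 to 29789 on whole prostate arrays, with 3 of 11 higher and 3 lower. The 4 basal keratins summed to 3205 to 3393 on epithelium arrays and 435 to 557 on whole prostate arrays, and all 4 were higher. Adipocyte markers were lower (5 of 7, 220 to 295 against 2079 to 2435), as were leukocyte markers (8 of 10, with 1 higher, 520 to 657 against 1240 to 2512). Of the skeletal muscle markers 7 of 10 were lower and 3 higher, but their summed intensities were higher (6897 to 8082 against 1646 to 3367). Of the nerve markers 1 of 2 was lower and 1 higher, and of the seminal vesicle markers 2 of 3 were lower. No gene of these lists was at 0 on any array. The ratio of the 3-prime to the 5-prime actin control probe set, a sign of RNA integrity, was 2.26 to 2.57 on epithelium arrays and 3.14 to 3.98 on whole prostate arrays. Array medians were 28.7 to 38.7 intensity units, and 28.3% to 36.7% of the probe sets of an array lay under 16.

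**Figure D1:**
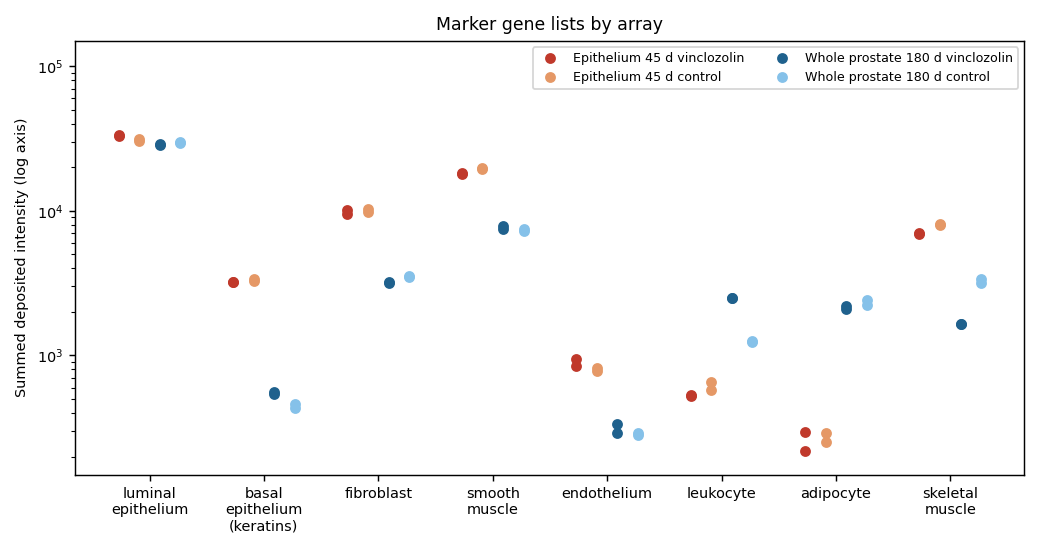
Summed deposited intensity (vertical, log axis) of 8 lists of cell type marker genes (horizontal), 1 dot for each of the 8 arrays, coloured by group. The basal keratins sum to 3205 to 3393 on the epithelium arrays and 435 to 557 on the whole prostate arrays. The luminal, fibroblast, smooth muscle, endothelial and skeletal muscle sums are also higher on the epithelium arrays, and the leukocyte and adipocyte sums are lower.

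A feature of the members that the choice of genes did not use is the sequence before their transcription starts. The E-box CACCTG is the site that the SNAI and ZEB repressors of junction genes recognise, and TGANTCA is the AP-1 site. The 26 members with an entry in the RefSeq promoter table of assembly GRCr8 were searched on both strands, in the 300 bases from 250 before to 50 after the annotated start. The 10 members without an entry, which the shares below do not cover, were Cdh1, Cdh3, Cldn4, Ehf, Esrp1, Itga6, Itgb4, Pkp2, Pkp3 and St14. CACCTG was found in 19 of 26 member promoters (73.1%), against 6304 of 33469 promoters of the whole table (18.8%) and 1651 of 9483 first promoters of other genes tested on the array (17.4%). It was in 5 of 5 desmosome promoters, 4 of 4 of the surface, trafficking and protease group, 5 of 8 tight junction promoters and 2 of 5 of the hemidesmosome group. TGANTCA was found in 6 of 26 member promoters (23.1%), against 7.33% of all promoters and 4.8% of the other tested genes. The median GC content was 63.0% in the members, 60.7% in the other tested genes and 51.7% in all promoters, and no match of one motif overlapped a match of the other. A match is a description of the letters and not a site shown to be bound.

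The promoters of 5 members are printed because the results below turn on their genes and because they span the range of matches, written 5′ to 3′ along the gene with every CACCTG (or its reverse complement) and TGANTCA in capitals. Cldn7 (chr10:55188420-55188719, plus strand) held the most CACCTG matches, 5. Sfn (chr5:151111805-151112104, minus strand) and Perp (chr1:15361534-15361833, plus strand) held 1 match of each motif. Lama3 (chr18:3952517-3952816, plus strand) held 1 CACCTG and 3 TGANTCA matches, and its annotated start lies inside the gene, downstream of the outermost start. Col17a1 (chr1:256518808-256519107, minus strand) held neither motif, as did 7 of the 26 in all.
Cldn7: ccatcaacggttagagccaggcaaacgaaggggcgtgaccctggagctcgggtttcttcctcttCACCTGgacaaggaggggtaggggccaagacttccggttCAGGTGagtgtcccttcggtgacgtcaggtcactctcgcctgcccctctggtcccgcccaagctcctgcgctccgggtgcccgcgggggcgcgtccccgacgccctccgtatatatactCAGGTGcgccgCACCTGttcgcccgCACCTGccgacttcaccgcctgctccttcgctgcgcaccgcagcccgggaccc
Sfn: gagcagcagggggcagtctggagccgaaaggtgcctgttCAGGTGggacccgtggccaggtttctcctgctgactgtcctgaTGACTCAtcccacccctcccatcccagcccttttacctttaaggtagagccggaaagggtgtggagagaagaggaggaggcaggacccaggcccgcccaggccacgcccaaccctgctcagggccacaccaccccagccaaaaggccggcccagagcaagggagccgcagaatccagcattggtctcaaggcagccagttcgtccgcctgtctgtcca
Perp: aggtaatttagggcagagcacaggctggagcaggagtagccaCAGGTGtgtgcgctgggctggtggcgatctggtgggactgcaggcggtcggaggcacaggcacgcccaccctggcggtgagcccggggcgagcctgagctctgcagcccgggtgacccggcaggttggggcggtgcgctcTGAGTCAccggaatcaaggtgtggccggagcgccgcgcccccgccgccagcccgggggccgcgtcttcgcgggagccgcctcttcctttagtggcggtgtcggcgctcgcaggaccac
Lama3: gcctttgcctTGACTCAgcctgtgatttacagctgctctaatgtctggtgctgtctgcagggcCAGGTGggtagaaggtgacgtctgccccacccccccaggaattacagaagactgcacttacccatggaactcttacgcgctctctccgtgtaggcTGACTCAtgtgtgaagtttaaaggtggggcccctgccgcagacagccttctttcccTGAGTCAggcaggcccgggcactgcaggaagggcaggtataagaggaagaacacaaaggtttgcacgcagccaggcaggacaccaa
Col17a1: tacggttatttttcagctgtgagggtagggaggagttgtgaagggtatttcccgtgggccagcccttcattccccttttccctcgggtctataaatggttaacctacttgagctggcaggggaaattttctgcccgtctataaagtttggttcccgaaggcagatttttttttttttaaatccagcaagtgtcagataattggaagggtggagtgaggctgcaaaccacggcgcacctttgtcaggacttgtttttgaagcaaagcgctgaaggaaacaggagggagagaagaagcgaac

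The largest differences among the members lay between epithelium at 45 days and whole ventral prostate at 180 days. In the control arrays, 4 of 7 hemidesmosome and basal lamina genes and 3 of 5 basal and epithelial regulators were higher in epithelium, led by Sfn. Of 9 tight junction genes, Cldn4 was higher and 3 were lower. By limma's fit with Benjamini-Hochberg adjustment over 21729 probe sets, 14 of 36 genes passed an adjusted p of 0.05 (38.9%), where 28.4% of all 11485 tested genes did. Of these, 10 were higher (27.8%, against 12.8% of all tested genes) and 4 were lower (11.1%, against 15.6%). Median centring in place of quantile normalisation turned this balance to 7 members higher and 11 lower. Over all probe sets it gave 2246 higher and 5536 lower calls (28.9% higher, against 46.3% with quantile normalisation). It put the median of all genes at -0.24 and that of the members at -0.10. The members' median lay above that of all genes by 0.14, against 0.13 with quantile normalisation. At least a 2-fold difference was measured in 6 of 36 members (16.7%) and in 8.96% of all tested genes. The median difference was 0.07 over the members and -0.06 over all tested genes. All differences are epithelium minus whole prostate on the scale log2(intensity + 16), given as the estimate ± standard error (SE) with n = 2 arrays a group. The added 16 understates the differences of dim probe sets.

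Among the basal and epithelial regulators, 3 of 5 rose. Sfn, which encodes the adapter protein 14-3-3 sigma of stratified and basal epithelia, had intensities of 359.1 and 407.3 in vinclozolin epithelium, 248.5 and 255.3 in control epithelium, 30.4 and 40.8 in vinclozolin whole prostate, and 13.3 and 15.8 in control whole prostate. Every epithelium array lay far above every whole prostate array. Sfn differed by 3.02 ± 0.14 between the control groups (8.11-fold in intensity + 16, adjusted p = 7.18e-05), the largest difference among the members. The size ran from 1.97 to 3.80 over the settings of the fit. Ehf, an ETS-family transcription factor of epithelia, had 101.0 and 113.1 in control epithelium, against at most 41.3 in control whole prostate, and rose by 1.03 ± 0.17. Elf3, a related ETS factor, had 129.5 and 105.7 in control epithelium, against 70.7 and 61.1 in control whole prostate, a rise of 0.63 ± 0.17. Neither gene's arrays overlapped, but Elf3 passed under only 8 of 18 other settings of the fit (adjusted p up to 0.17). Tp63, the transcription factor that maintains basal cells, did not pass, with 64.7 and 52.7 in control epithelium and 35.5 and 37.6 in control whole prostate (0.31 ± 0.13, adjusted p = 0.122). Esrp1, a splicing regulator of epithelial cells, had intensities of 990 to 1161 over the 8 arrays and a difference of -0.12 ± 0.11.

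Of the hemidesmosome and basal lamina genes, 4 of 7 rose and none fell, with a median difference of 0.61 over the 7. Lama3 and Lamb3 encode chains of laminin-332, the laminin that hemidesmosomes bind. Lama3 had 37.6 and 31.8 in vinclozolin epithelium, 30.9 and 51.6 in control epithelium, 11.8 and 10.6 in vinclozolin whole prostate, and 2.7 and 0.9 in control whole prostate. The epithelium arrays were again above all whole prostate arrays, and the whole prostate intensities lay under 16. Lama3 differed by 1.53 ± 0.20 between the control groups (adjusted p = 0.0031), and the size ran from 0.61 with a pseudocount of 64 to 3.60 with a pseudocount of 1. Lamb3 had 135.8 and 96.2 in control epithelium, against 42.5 and 30.1 in control whole prostate, a rise of 1.20 ± 0.24. Col17a1, the transmembrane collagen of hemidesmosomes, had 53.4 and 54.2 in control epithelium, against 3.1 and 15.4 in control whole prostate, a rise of 1.33 ± 0.34. Its whole prostate arrays were dim and differed between replicates, and with a pseudocount of 1 it no longer passed (2.38, adjusted p = 0.166).

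The integrin chains Itga6 and Itgb4 form the laminin receptor of hemidesmosomes. Itga6 rose on its brightest probe set, with 450.0 and 473.3 in control epithelium, against 343.0 and 299.4 in control whole prostate (0.61 ± 0.16), but it passed under only 9 of 18 other settings and was at 0.27 with median centring (adjusted p = 0.231). Of its other probe sets, 1 rose by 1.36 ± 0.30 and 2 did not pass, at 0.33 and -0.23. Itgb4 (0.42 ± 0.18, adjusted p = 0.141) and Itga3 (0.43 ± 0.19, adjusted p = 0.14), which pairs with another beta chain to bind laminin, did not pass. Dst, which encodes the plakin dystonin in several isoforms, had probe sets that disagreed. Its brightest differed by 0.04 ± 0.15 and did not pass, while another had 139.4 and 126.6 in control epithelium, against 19.3 and 23.4 in control whole prostate, a rise of 1.85 ± 0.16. A further Dst probe set rose by 1.84 ± 0.22, and the last of those tested did not pass (0.78 ± 0.28, adjusted p = 0.0873). Which isoforms these probe sets measure is not annotated in the files.

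The tight junction genes went both ways, with 1 of 9 higher and 3 lower. Cldn4, a barrier claudin, had 2977 and 2861 in vinclozolin epithelium, 3300 and 3663 in control epithelium, 977.1 and 886.2 in vinclozolin whole prostate, and 1169 and 1256 in control whole prostate. All epithelium arrays lay above all whole prostate arrays, and Cldn4 rose by 1.46 ± 0.12 between the control groups (2.75-fold, adjusted p = 0.000561). Cldn7, a claudin found along the basolateral membrane where it binds Epcam, ran the other way, with 554.0 and 541.1 in vinclozolin epithelium, 681.6 and 539.8 in control epithelium, 1368 and 1288 in vinclozolin whole prostate, and 1016 and 1193 in control whole prostate. Every epithelium array was below every whole prostate array, and Cldn7 fell by 0.80 between the control groups (SE 0.16, adjusted p = 0.0124). The scaffold Tjp1 (ZO-1) had 671.6 and 663.6 in control epithelium, against 1095 and 960.6 in control whole prostate (-0.55 ± 0.12). F11r, the junctional adhesion molecule JAM-A, had 1216 and 1242 in control epithelium, against 1600 and 1529 in control whole prostate (-0.40 ± 0.11). Tjp1 and F11r passed as lower on these probe sets. The dimmer second probe set of Tjp1 was at 0.70 ± 0.38 and did not pass (adjusted p = 0.216), and F11r passed under only 6 of 18 other settings (adjusted p up to 0.158). Cldn1 (0.75 ± 0.27, adjusted p = 0.0812), Cldn3 (-0.26), Cldn8 (0.14), Ocln (-0.20), the transmembrane protein occludin, and Tjp3 (0.06), a further scaffold, did not pass. Nor did the dimmer probe sets of Cldn1 (0.25 and 0.93) and of Ocln (0.09).

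Of the adherens and adhesion genes, Cdh3 rose, with 71.3 and 68.6 in control epithelium, against 28.8 and 21.6 in control whole prostate (0.85 ± 0.19, adjusted p = 0.0194). The epithelial cadherin Cdh1 had 2155 and 2245 in control epithelium and 2708 and 2391 in control whole prostate and did not pass (-0.28 ± 0.11, adjusted p = 0.115). Epcam, the epithelial adhesion molecule, had intensities between 2127 and 2629 over the 8 arrays and did not pass either (-0.14 ± 0.13, adjusted p = 0.468).

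Among the desmosome genes, 1 of 7 rose and 1 fell. Jup, the plakoglobin that links desmosomal cadherins to plakophilins and desmoplakin, had 569.6 and 618.3 in control epithelium, against 450.3 and 398.6 in control whole prostate (0.57 ± 0.13, adjusted p = 0.0187), and was at 0.24 with median centring (adjusted p = 0.249). Perp, a tetraspan protein of desmosomes, fell on its brightest probe set, with 4846 and 4991 in control epithelium, against 5476 and 5722 in control whole prostate (-0.47 ± 0.11 after quantile normalisation). On the values as deposited the difference was -0.19 and did not pass (adjusted p = 0.226). Its other probe set, of similar brightness, had 5576 and 5507 in control epithelium and 4378 and 4590 in control whole prostate and did not pass (0.05 ± 0.10), so the direction of Perp is uncertain. The plaque protein Dsp (0.12), the cadherins Dsg2 (-0.19) and Dsc2 (-0.17) and the plakophilins Pkp2 (-0.16) and Pkp3 (-0.14) did not pass.

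None of the 5 genes of the surface, trafficking and protease system passed. Their differences were -0.49 for the mucin Muc1, 0.25 for Rab25, a small GTPase of apical recycling, 0.08 for St14, the membrane protease matriptase, -0.05 for Spint1 and -0.02 for Spint2, the inhibitors of matriptase-like proteases. Spint2 was bright, at 3470 to 4363 on the 8 arrays, and Muc1 was dim, at 7.5 to 32.2.

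**Figure D2:**
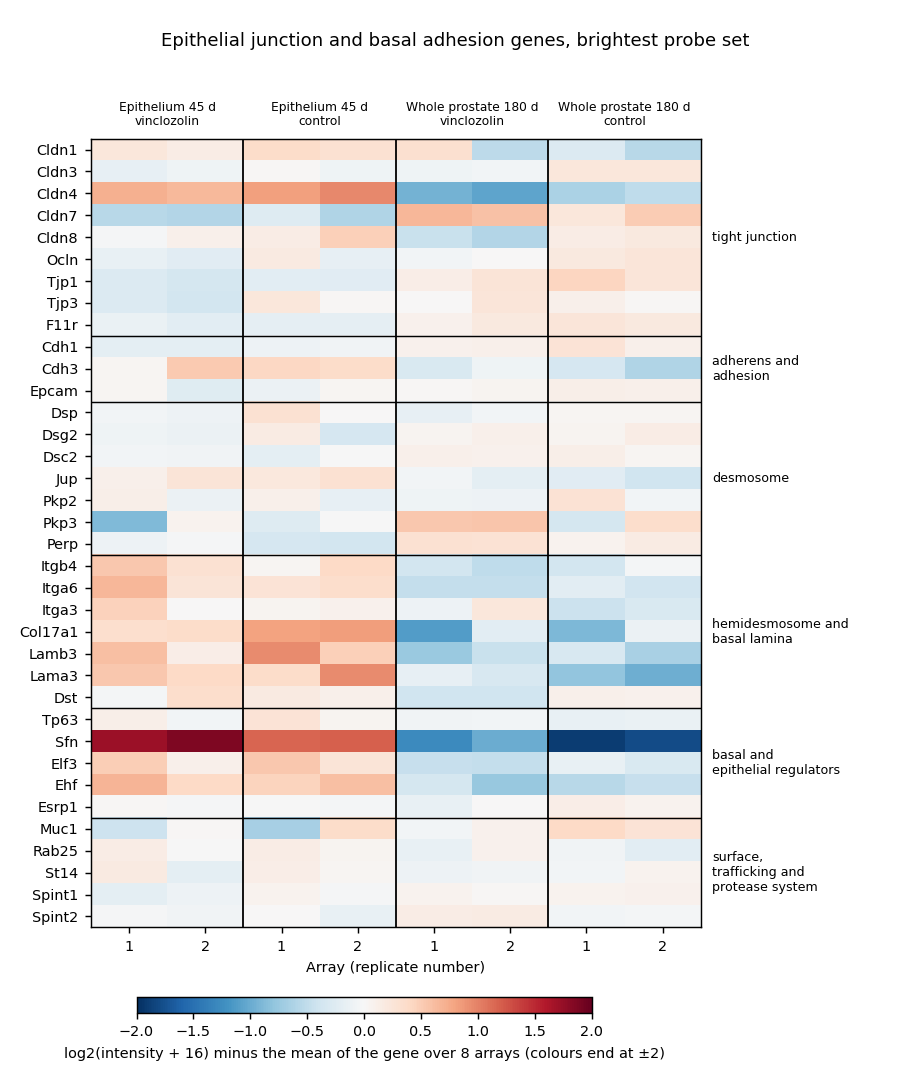
Heat map of the 36 members (rows, grouped by role) over the 8 arrays (columns, by group and replicate number); colour is log2(intensity + 16) minus the mean of the gene over the 8 arrays. Sfn, Cldn4, Lama3, Lamb3 and Col17a1 are red on the epithelium arrays and blue on most whole prostate arrays, and Cldn7 has the opposite pattern.

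The same contrast in the vinclozolin arrays shares no array with the one in the control arrays, and it was added after the control values had been seen. Both contrasts used the same normalisation, filter and estimate of the spread of each probe set, so their p-values are not independent. There 13 of 36 genes passed, against 27.8% of all tested genes, with 10 higher (against 12.7%) and 3 lower (against 15.1%). Passing in both contrasts were 7 genes that were higher, namely Cldn4, Ehf, Elf3, Itga6, Lama3, Lamb3 and Sfn (19.4%, against 8.61% of all tested genes), and 3 that were lower, namely Cldn7, Perp and Tjp1 (8.33%, against 8.86%). Sfn rose by 2.92 ± 0.14 and Cldn4 by 1.68 ± 0.12 in the vinclozolin arrays, and Cldn7 fell by 1.20 (SE 0.16). Itgb4 (0.86 ± 0.18), Cldn8 (0.56 ± 0.15) and the brightest Dst probe set (0.56 ± 0.15) rose in the vinclozolin arrays. The dimmer tested Dst probe sets rose there too (1.54 ± 0.16, 1.25 ± 0.22 and 1.29 ± 0.28). Those at 1.85 and 1.84 in the control arrays thus passed in both contrasts. So did the dimmer Ocln probe set rise in the vinclozolin arrays (0.42 ± 0.12, adjusted p = 0.048), whose brighter one was at -0.16. Cdh3, Col17a1, F11r and Jup, which passed in the control arrays, had adjusted p-values of 0.0701 to 0.121 here. Lama3 rose by 0.71 ± 0.20 in the vinclozolin arrays, and the difference from the control arrays was -0.81 ± 0.29 (adjusted p = 0.308).

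**Figure D3:**
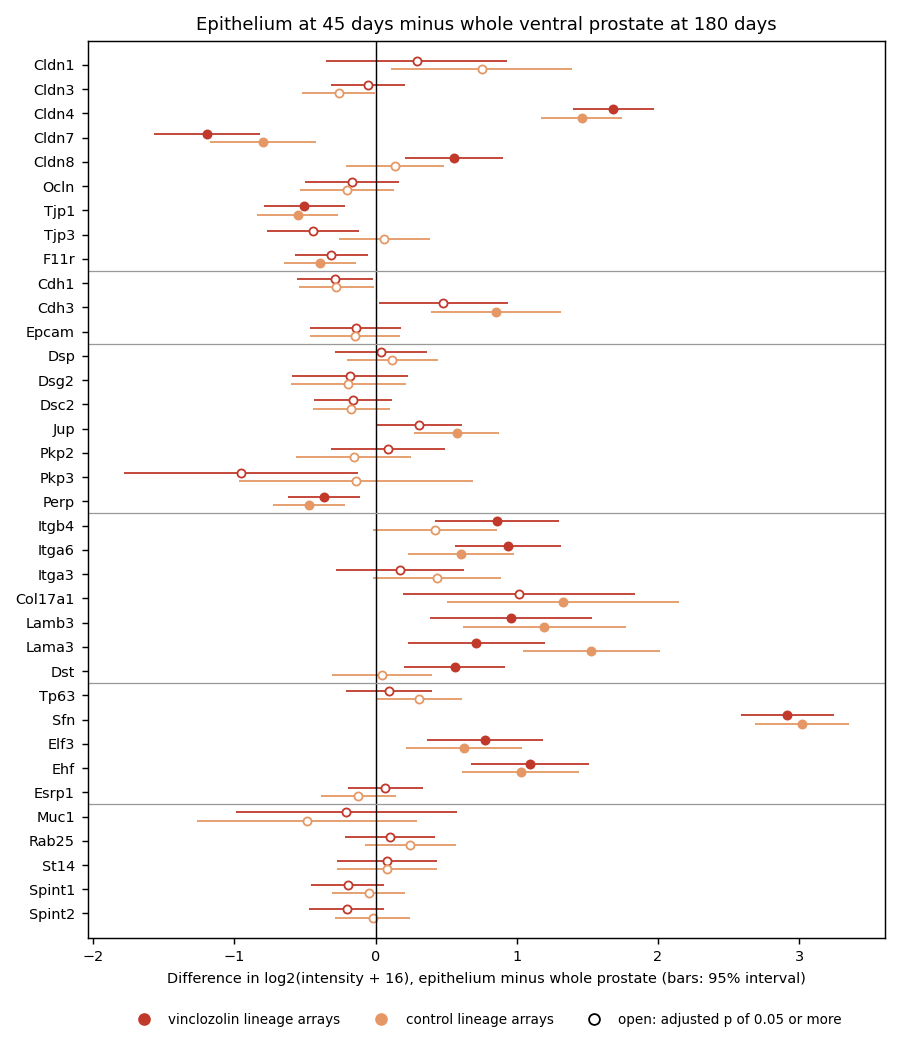
Difference in log2(intensity + 16), epithelium at 45 days minus whole ventral prostate at 180 days (horizontal), for each member (vertical), in the vinclozolin arrays and in the control arrays; bars are 95% intervals of limma's fit and filled dots passed an adjusted p of 0.05. Sfn lies near 3 in both, Cldn4 at 1.68 and 1.46, and Cldn7 at -1.20 and -0.80.

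Leaving out any 1 array of the control contrast left 1 array in a group. Fewer of the members passed then, and fewer of all probe sets did too. Sfn, Cldn4 and Lama3 passed under every other setting of the fit in which they were tested. Of 18 such settings, Ehf passed 17, Lamb3 and Cldn7 16, Tjp1 15, Cdh3 14, Jup 13 and Perp 12, and Col17a1 passed 13 of 17. The basal keratin, fibroblast, smooth muscle and endothelial markers and the actin ratio moved with this contrast as given above, and their part in the members' differences was not tested.

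Other genes of the same structures were counted from lists of pathway genes. Of all 11485 tested genes, 12.8% were higher and 15.6% lower in control epithelium, and the counts of each list stand against these shares. Of 19 tested further hemidesmosome, basement membrane and integrin genes, 11 were higher in control epithelium and 0 lower, with a median difference of 0.78. The type IV collagen chains Col4a1 (2.71 ± 0.13) and Col4a2 (1.97 ± 0.18), the basement membrane linker Nid1 (1.77 ± 0.16) and the integrin chain Itgb1 (1.60 ± 0.11) led them, genes that stromal and endothelial cells also express. Of 22 further tight junction genes 4 were higher and 4 lower, with the junctional adhesion molecule Jam3 at 1.44 ± 0.20, the polarity scaffold Pals1 at -1.41 ± 0.12 and the claudin Cldn12 at -1.26 ± 0.32. Of 17 further adherens junction genes 4 were higher and 3 lower. Cdh11, a cadherin of mesenchymal cells, differed by 2.59 ± 0.10, the actin linker Vcl by 1.90 ± 0.15, Ctnnb1 (beta-catenin) by 0.52 ± 0.10, and the nectin partner Afdn by -1.11 ± 0.13. The plakophilin Pkp1 rose by 1.81 ± 0.22, the only one of 4 further desmosome genes to pass. Of 13 further epithelial regulators 2 were higher and 3 lower, with the transcription factor Klf4 at 2.19 ± 0.13 and the membrane protease Tmprss2 at -1.24 ± 0.16. Of 11 genes of epithelial-mesenchymal transition 3 were higher and 1 lower. These were the intermediate filament Vim (1.64 ± 0.10), the repressor Snai1 (0.71 ± 0.14), the fibronectin gene Fn1 (0.75 ± 0.17) and S100a4 (-1.26 ± 0.19), a calcium-binding protein also made by leukocytes. Among the genes named here, 4 lost their call under some alternative. Snai1, Fn1 and Cldn12 no longer passed without either whole prostate control array or without replicate 2 of control epithelium (adjusted p up to 0.0767, 0.111 and 0.127), and Ctnnb1 without either whole prostate control array (up to 0.0762). Median centring also ended the call of Fn1, and a pseudocount of 1 or the groups compared alone that of Cldn12.

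In the comparison of lineages, none of the 36 members passed in whole ventral prostate at 180 days. By limma's fit 0 of 36 genes had an adjusted p under 0.05, where 1.9% of all tested genes did, and 6 of 36 (16.7%) had an unadjusted p under 0.05, where 19.3% of all tested genes did. Differences below are vinclozolin minus control on the scale log2(intensity + 16), and their median was -0.07 over the members and -0.001 over all tested genes. Over probe sets, 0 of 47 passed (1.74% of all tested did) and 7 had an unadjusted p under 0.05 (14.9%, against 18.7%). The 95% interval lay within a 2-fold change of intensity + 16 for 31 of 36 members and within a 1.5-fold change for 20. For members with intensities near or under 16 this does not bound the fold change of the intensity itself. An example is Col17a1, at 1.1 and 15.7 in the vinclozolin arrays and 3.1 and 15.4 in the control arrays. The exceptions to the 2-fold bound were Cldn8, Lama3, Muc1, Pkp3 and Sfn.

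The lowest p-values in whole prostate belonged to Sfn and Cldn8. Sfn had 30.4 and 40.8 in vinclozolin whole prostate and 13.3 and 15.8 in control whole prostate. It differed by 0.71 ± 0.14 (1.64-fold in intensity + 16, adjusted p = 0.0618), and by 0.34 to 1.11 over the settings of the fit. Both vinclozolin arrays were above both control arrays, at intensities near the pseudocount. Cldn8, a claudin of ion barriers, had 876.4 and 796.1 in vinclozolin whole prostate and 1278 and 1300 in control whole prostate (-0.69 ± 0.15, adjusted p = 0.0744). Cldn4 differed by -0.42 ± 0.12 (adjusted p = 0.137), Cldn3 by -0.30 ± 0.11 (adjusted p = 0.21), and the brightest Dst probe set by -0.49 ± 0.15 (adjusted p = 0.157). Lama3, whose control arrays were at 2.7 and 0.9, differed by 0.63 ± 0.20 (adjusted p = 0.174), a size that ran from 0.20 with a pseudocount of 64 to 2.11 with a pseudocount of 1. The groups of 2 arrays did not overlap in any of these 6 genes on the brightest probe set. Perp differed by 0.18 ± 0.11 on its brightest probe set and by 0.38 ± 0.10 on its other one, of similar brightness (adjusted p = 0.131). The dimmer probe sets of Dst differed in sign, at 0.03, 0.21 and -0.37. Those of Cldn1 (0.33 and -0.16), Tjp1 (0.12) and Itga6 (0.34, -0.05 and -0.30) also did not all share the sign of the brightest, and none of these passed. Without overlap were 25 of 36 members in all (69.4%, against 56.8% of all tested genes), 10 with higher values in the vinclozolin arrays (27.8%, against 28.5%) and 15 with lower ones (41.7%, against 28.3%). Other settings of the fit passed Cldn8 and Cldn4 (pseudocount of 64), Cldn8 and Sfn (a stricter filter on dim probe sets, or array weights), or 7 members (a trended, robust prior: Cldn3, Cldn4, Cldn8, Dst, Perp, Sfn and Spint2). These settings also called more of all probe sets than the 379 of the main fit. The counts were 1133 with a pseudocount of 64, 965 with the stricter filter, 871 with array weights and 1814 with the trended, robust prior.

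In epithelium at 45 days, 0 of 36 genes passed limma's test, where 2 of 21729 probe sets (0.0092%) and 0.0% of the named genes did, and 3 of 36 (8.33%) had an unadjusted p under 0.05, where 10.8% of all tested genes did. These 3 were Sfn, Perp and Tjp3. Over probe sets, 0 of 47 passed and 5 had an unadjusted p under 0.05 (10.6%, against 11.4%). These included a dimmer probe set of Itga6 (0.52 ± 0.21, adjusted p = 0.416), whose brightest was at 0.15. Dimmer probe sets with a sign opposite to the brightest were those of Cldn1 (0.15), Ocln (0.14) and Dst (-0.28 and -0.38). Sfn had 359.1 and 407.3 in vinclozolin epithelium and 248.5 and 255.3 in control epithelium (0.61 ± 0.14, 1.52-fold, adjusted p = 0.255). Perp had 5603 and 5854 in vinclozolin epithelium and 4846 and 4991 in control epithelium (0.29 ± 0.11, adjusted p = 0.396), and its other probe set differed by 0.28 ± 0.10. In both genes the vinclozolin arrays lay above the control arrays. Tjp3, a scaffold of the ZO family, had 55.5 and 51.0 in vinclozolin epithelium and 79.9 and 69.0 in control epithelium (-0.44 ± 0.13, adjusted p = 0.321). The 95% interval lay within a 2-fold change of intensity + 16 for 34 of 36 members, the exceptions being Col17a1 and Pkp3, and within 1.5-fold for 25. This does not bound the intensity of dim members such as Muc1, at 13.1 and 23.2 in vinclozolin epithelium and 7.5 and 32.2 in control epithelium. With a trended, robust prior 1 member, Perp, passed, where 205 of all probe sets did.

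Values of the lineage comparison can be set side by side for the preparations, which share no arrays but share the normalisation and the estimate of the spread. Sfn differed by 0.71 in whole prostate and 0.61 in epithelium, and Perp by 0.18 and 0.29. The other Perp probe set, of similar brightness, differed by 0.38 and 0.28. Both genes had vinclozolin arrays above control arrays in each preparation (2 of 36 members, 5.56%, against 7.55% of all tested genes). Cldn4, Cldn8, Dsp and Spint1 had vinclozolin arrays below control arrays in each (4 of 36, 11.1%, against 7.45%). Neither share was far from that of all tested genes. A dimmer Itga6 probe set also had vinclozolin arrays above control arrays in each preparation (0.34 in whole prostate and 0.52 in epithelium). The brightest one of Itga6 was at -0.18 and 0.15. No member passed the test of the difference between the lineage effects (0 of 36, against 0.305% of all tested genes; 3 of 36, against 13.3%, had an unadjusted p under 0.05). The largest values of this difference were -0.81 for Lama3 (-0.30 to -2.36 over the settings of the fit) and -0.81 for Pkp3, whose replicates in epithelium were 64.8 and 130.1 in the vinclozolin group and 101.8 and 122.8 in the control group.

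**Figure D4:**
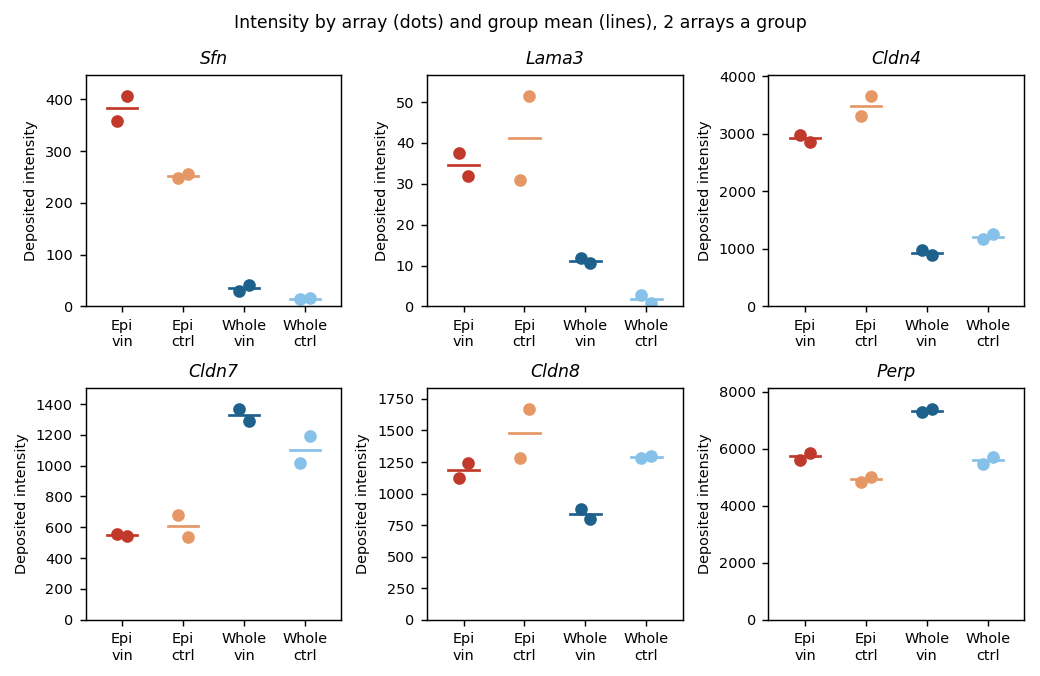
Deposited intensity (vertical) of 6 members on each array (dots), with the mean of the group (lines), for vinclozolin and control epithelium (Epi) and vinclozolin and control whole prostate (Whole). Sfn is at 359.1 and 407.3 in vinclozolin epithelium and at 13.3 and 15.8 in control whole prostate, and the Cldn8 arrays of vinclozolin whole prostate, at 876.4 and 796.1, lie below those of control whole prostate, at 1278 and 1300.

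**Figure D5:**
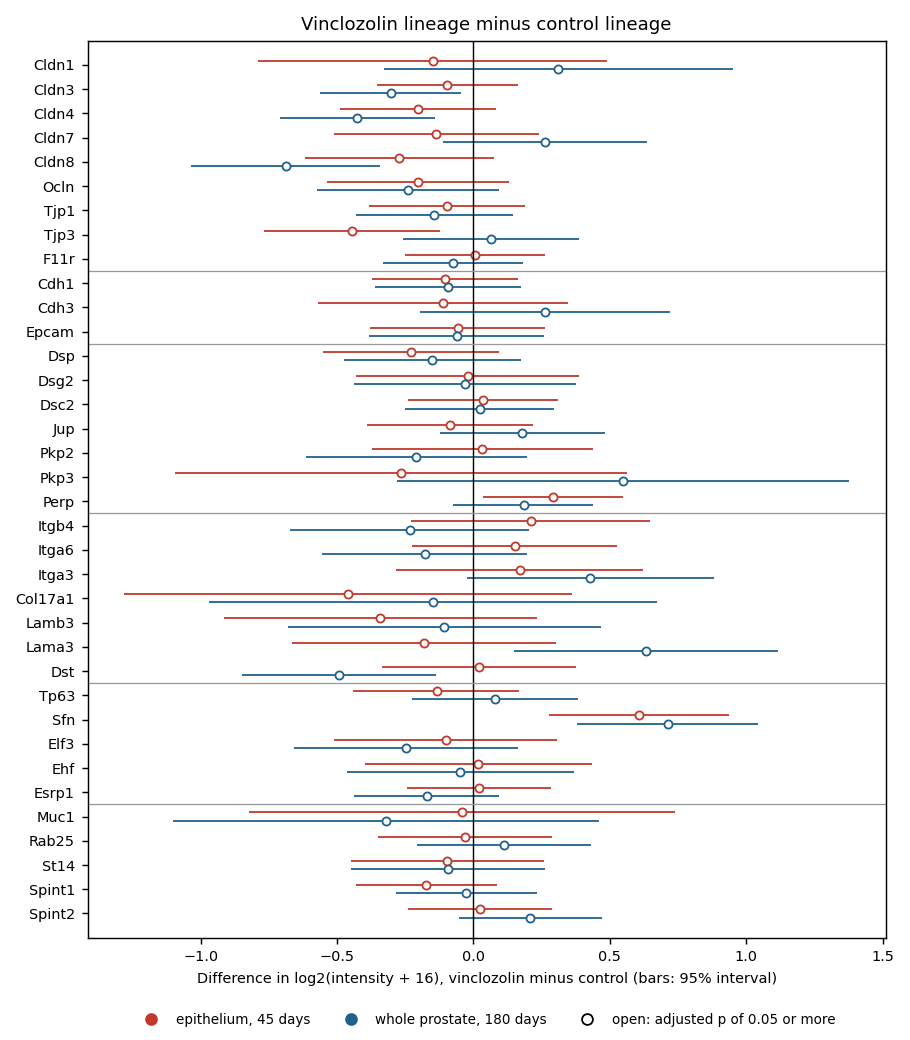
Difference in log2(intensity + 16), vinclozolin minus control (horizontal), for each member (vertical), in epithelium and in whole ventral prostate; bars are 95% intervals of limma's fit. All dots are open, since 0 of 36 members passed an adjusted p of 0.05 in either preparation.

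The other pathway lists had 22, 17, 4, 19, 13 and 11 tested genes. Of these, 1 passed in the lineage comparison, in whole prostate, where 1.9% of all tested genes did. Klf5, a zinc-finger transcription factor of epithelial cells and 1 of 13 further epithelial regulators tested, had 148.4 and 136.7 in vinclozolin whole prostate, against 310.4 and 305.5 in control whole prostate. It fell by 0.97 (SE 0.13, adjusted p = 0.0225), with arrays that did not overlap. In epithelium it differed by -0.27 ± 0.13 (adjusted p = 0.488), and the difference between these effects did not pass (0.70 ± 0.18, adjusted p = 0.208). Leaving out any 1 of the 4 whole prostate arrays ended the call (adjusted p of 0.0866 to 0.181), as did fitting only the groups compared (adjusted p = 0.068) and a replicate block (adjusted p = 0.0526). The other lists of tight junction, adherens junction, desmosome, hemidesmosome and epithelial-mesenchymal transition genes had 0 called in either preparation. In whole prostate 3 of 10 leukocyte markers were higher (summed intensities of 2487 and 2512 in the vinclozolin arrays and 1240 and 1257 in the control arrays) and 6 of 10 skeletal muscle markers were lower (1646 and 1657 against 3161 and 3367). Of the seminal vesicle markers 1 of 3 was lower (117.0 and 135.2 against 341.4 and 384.0), as was 1 of 11 luminal markers. The actin ratio was 3.37 and 3.14 in the vinclozolin arrays and 3.74 and 3.98 in the control arrays. Their part in the values of the members was not tested.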

How the data were processed

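RNA labelled with biotin was hybridised to Affymetrix rat arrays, per the labels' protocols. The deposited unit is the intensity of each probe set, on a linear scale. Which software the authors used for it is not given here. The members and the gene lists were chosen with earlier results of these data known. Probe sets were named from the platform annotation, and those with several symbols (436) or none listed (9780) were not named. From the 31099 probe sets, 57 controls were left out. The deposited intensity was taken to log2(intensity + 16), the arrays were quantile normalised, since their log2 medians differed by up to 0.29, and probe sets below the 30th percentile of mean intensity were dropped. A limma model (version 3.58.1, R 4.3.3) of the 4 group means over 8 arrays had 4 residual and 2.62 prior degrees of freedom, and p-values were adjusted by Benjamini-Hochberg over the 21729 probe sets tested. The fit was tested on simulated data. Groups were taken from the sample titles. All members are named by their brightest probe set, others being given where they disagree, and of other lists up to 4 called genes of lowest p per list. Promoter sequences are from RefSeq (GRCr8). Tables were read with Python 3.11.15, pandas 2.3.3, and plots drawn with matplotlib 3.10.9. Alternatives were other pseudocounts, filters, normalisations, priors, array weights, a replicate block, the groups compared alone, and each array left out. With 2 arrays a group, their number limits the precision. Same-numbered arrays of the lineages did not deviate together over all tested probe sets (correlations 0.0028 in whole prostate and 0.0294 in epithelium). This cannot exclude that the numbers pair the samples, since pairing need not shift most probe sets. The main fit did not pair them.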

Additional observations from a re-analysis of the deposited data

How the results depend on the processing

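The lineage comparison in whole prostate had 379 probe sets called. The count was 235 with a pseudocount of 1, 1133 with 64, 200 with no filter, 965 with a stricter one, 1814 with a trended robust prior, 871 with array weights, 65 with the groups compared alone, and 26 to 220 with 1 array left out. Members called there were 2 with a pseudocount of 64, with a stricter filter and with array weights, and 7 with a trended robust prior. In epithelium the 2 probe sets became 0 with a pseudocount of 1, no filter, array weights, the groups compared alone, or any array left out (0 to 0), 66 with a pseudocount of 64, 23 with a stricter filter, 1 with median centring, and 205 with a trended robust prior, which called 1 member. The difference of effects had 63 probe sets called, against 40, 262, 32, 169 and 540 with pseudocounts of 1 and 64, no filter, a stricter filter and a trended robust prior, and 5 to 18 with 1 array left out. With a replicate block the counts were 177, 0 and 26, and between preparations 5356 probe sets and 13 members, F11r being lost. Between preparations 6051 probe sets were called, and 2661 to 5751 with 1 array left out. Members there numbered 14, and 5 to 13 with 1 array left out. The vinclozolin arrays, chosen after seeing the data, gave 13. Median centring moved the median of all genes between preparations from -0.06 to -0.24 and gave 2246 higher and 5536 lower calls (28.9% higher, against 46.3%), with 7 members higher and 11 lower. In whole prostate it gave 36.1% higher, against 47.0%. Of 4542 gene values compared, 327 lost and 35 gained a call, and 104 that were called under neither setting changed sign. The causes were not tested. The number of arrays and, for Lama3, Col17a1 and Muc1, signal near background limit the precision.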
